A study of Mus musculus with 6 samples.

Results

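The genes of the epidermal growth factor (EGF) receptor ligands and the ErbB receptors were followed in intestinal organoids of Apc Min mice. They are 10 of the 24956 genes in the deposited table, chosen by name: 6 ligand genes (Areg, Ereg, Hbegf, Tgfa, Btc and Epgn), 3 receptor genes (Egfr, Erbb2 and Erbb3) and Errfi1, the gene of a receptor inhibitor. The study compared 3 cultures treated with DM-aKG, a cell-permeable dimethyl ester of α-ketoglutarate, which is an intermediate of the TCA cycle, with 3 control cultures. Both groups carry Apc Min, a nonsense allele of the Wnt pathway gene Apc, and both were grown in organoid medium as primary epithelial cells. The sources used here give no dose, duration, vehicle, growth factor content of the medium or age of the mice. The design speaks of biological replicates without tying them to mice, so p-values measure only the spread between these cultures, which may be technical.

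ErbB ligands are made as membrane-anchored precursors and are released by metalloproteases of the ADAM family, after which they bind a receptor on the same or a neighbouring cell. EGFR and its relatives ErbB2 and ErbB3 then pair, and the pair activates the RAS–ERK cascade and PI3-kinase. In the intestine this signal drives crypt cell proliferation and repair, EGF is a usual component of organoid medium, and loss of Egfr activity lowers the number of polyps in Apc Min mice.

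Values are RPKM, reads scaled by gene length and library size, which allows a rough comparison of levels between genes. The gene lengths used are not given, so small differences in level between genes are uncertain. Libraries held 32.7 to 34.3 × 10⁶ reads, as estimated from the smallest listed values. All 8 epithelial markers examined were above the filter, with a summed level of 3667 to 4575 RPKM in the DM-aKG libraries and 2849 to 2896 RPKM in the controls. Within it 5 were called higher, with the keratin genes Krt8, Krt18 and Krt19 at log2 fold changes of 0.85, 0.91 and 0.85, and Epcam and Cdx2 were called lower, at -0.33 and -0.81. Of 12 fibroblast and muscle markers 11 stayed below 1 RPKM in every library, with Col3a1, Dcn and Lum at 0 throughout, and the list summed to 4.60 to 5.28 RPKM in DM-aKG and 2.89 to 3.22 RPKM in control, mostly Vim. The leukocyte gene Ptprc did not exceed 0.01 RPKM; of 12 immune cell markers 8 stayed below 1 RPKM, and the list summed to 7.02 to 7.41 RPKM in DM-aKG and 9.95 to 12.0 RPKM in control. Within it Kit, which was called lower, stood at 1.31 to 1.91 RPKM in DM-aKG and 7.18 to 8.99 RPKM in control. Cd14, which was called higher, stood at 2.69 to 2.85 RPKM in DM-aKG and 1.38 to 1.58 RPKM in control. Cd68, which was not called, stood at 0.87 to 2.31 RPKM in DM-aKG and 0.75 to 0.93 RPKM in control. Itgam, below the filter, stood at 0.92 to 1.23 RPKM in DM-aKG and 0.52 to 0.62 RPKM in control. All 8 endothelial and glial markers stayed below 1 RPKM, with Cdh5, Kdr and Emcn at 0 and sums of 1.24 to 1.40 RPKM in DM-aKG and 0.60 to 0.76 RPKM in control. DM-aKG replicate 1 stood somewhat apart, correlating across genes at 0.990 to 0.991 with the other DM-aKG libraries, which correlated at 0.997 with each other. Such correlations are across genes, which are no replicates, and serve only as a description.

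Every ligand gene was higher in all 3 DM-aKG libraries than in all 3 controls, as were Egfr, Erbb3 and Errfi1, and Erbb2 was the member whose groups overlapped. Of the 10 genes, 8 passed a filter of a mean of 1 RPKM over all libraries and were tested with limma on log2(RPKM + 0.5); Ereg and Epgn lay below it. With Benjamini-Hochberg adjustment over all 10852 tested genes, 7 of the 8 were called higher at an adjusted p under 0.05, none lower, and Erbb2 was not called. The groups differed in much of the transcriptome: 30.9% of all tested genes were called higher in DM-aKG and 24.7% lower. All DM-aKG libraries lay above all controls in 35.3% and below them in 28.9%. The calls were 3354 higher and 2679 lower genes, and centring each library on its median turned them to 2790 and 3340. The sizes set the members in context: a called rise of at least 2-fold was found in 2.68% of tested genes, and Areg and Hbegf reached it. A called rise of at least 1.5-fold was found in 7.04%, and Areg, Hbegf, Btc, Egfr and Tgfa reached it. The members were chosen with earlier results of these data known, so their counts beside these shares are a description only. The least covered of the 8 tested members in any library stood for about 504 reads (Hbegf), a counting error of 4.45%. In a bulk library, more cells that express a gene and more RNA per cell cannot be told apart.

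**Figure D1:**
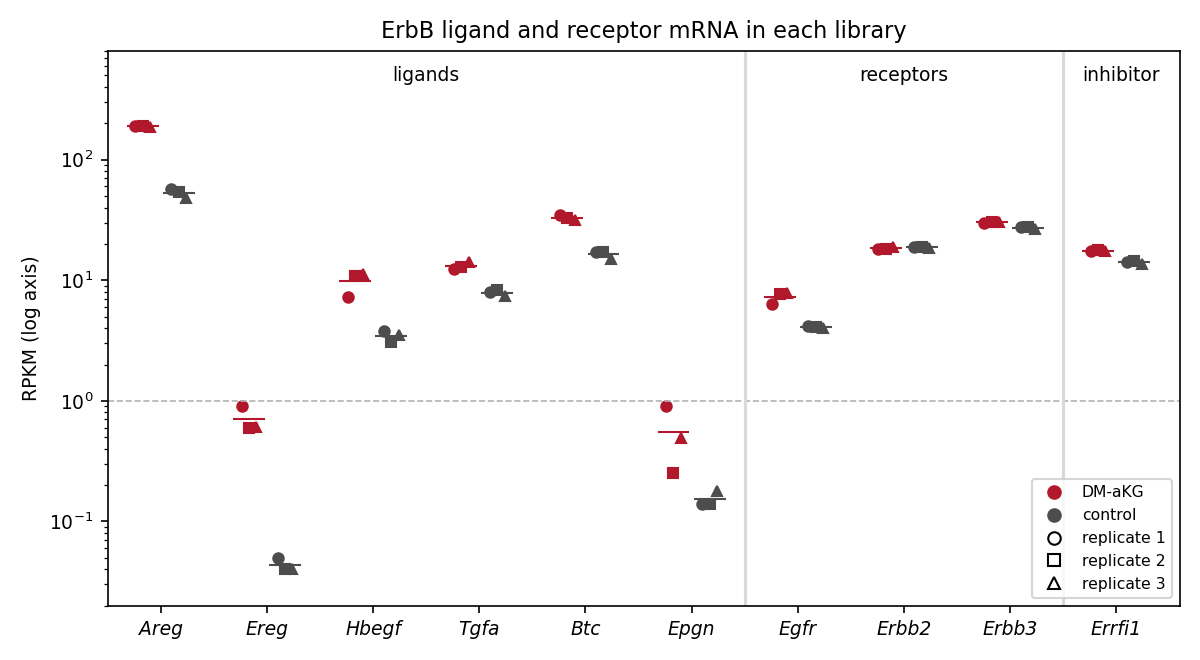
RPKM of the 10 genes in each library on a log axis, DM-aKG (red) left of control (grey), with a symbol for each replicate number and a bar at the group mean; the dashed line marks 1 RPKM. All genes but Erbb2 have their 3 DM-aKG points above their 3 control points, and Ereg and Epgn lie below the line in every library.

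Areg encodes amphiregulin, an EGFR ligand, and was the most abundant of the 10 genes in both groups. It stood at 192, 192 and 185 RPKM in DM-aKG replicates 1 to 3, against 57.0, 54.3 and 47.8 RPKM in control replicates 1 to 3. The lowest DM-aKG library was more than 3 times the highest control, and the DM-aKG libraries lay close together. Areg averaged 189.5 ± 3.64 RPKM in DM-aKG and 53.1 ± 4.75 RPKM in control (SD, n = 3 each), which is 1.83 ± 0.07 in log2 fold change (SE; limma, adjusted p = 2.17e-06). By mean level it ranked 262nd of 24956 genes in DM-aKG and 1132nd in control. Its rise was the 68th largest of the 10852 tested genes. The tested genes whose 6 library values, taken relative to the control mean, lay nearest to those of Areg were Gsta3, Plk2, Gclc and Phlda3. Their root mean square distances were 0.07 to 0.11 on the log2 scale over 6 libraries. With 2 groups, this distance mostly follows the size of the change, and their rises ranked 70th, 71st, 59th and 64th. Nearness thus describes a change of similar size and does not show shared regulation. Gsta3, a glutathione transferase gene, stood at 119, 122 and 115 RPKM in DM-aKG and 34.3, 33.6 and 33.3 RPKM in control.

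Because Areg had the largest rise of the 8 tested members, its promoter is shown. RefSeq windows from 250 bases before to 50 bases after the start of a gene were at hand for 7 of the 10 genes (assembly GRCm38.p6). The window of Areg is chr5:91139349-91139648, plus strand, 5′ to 3′. That of Errfi1, chosen after its matches were seen, is chr4:150854820-150855119, plus strand, the later of the 2 windows listed for that gene. Capitals mark matches to the motifs searched.
Areg: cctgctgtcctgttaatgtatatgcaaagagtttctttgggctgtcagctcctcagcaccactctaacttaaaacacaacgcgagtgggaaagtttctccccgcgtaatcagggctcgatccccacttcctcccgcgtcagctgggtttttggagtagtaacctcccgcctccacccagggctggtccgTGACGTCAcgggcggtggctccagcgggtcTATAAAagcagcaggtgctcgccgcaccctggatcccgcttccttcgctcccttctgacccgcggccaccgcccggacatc
Errfi1: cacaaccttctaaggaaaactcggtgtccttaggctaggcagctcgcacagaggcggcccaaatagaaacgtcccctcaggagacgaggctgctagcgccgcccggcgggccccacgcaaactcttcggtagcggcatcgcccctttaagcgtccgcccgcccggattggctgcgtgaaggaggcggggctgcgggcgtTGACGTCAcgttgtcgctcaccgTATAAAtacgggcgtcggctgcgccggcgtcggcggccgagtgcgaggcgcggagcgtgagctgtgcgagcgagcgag
Each motif was sought on both strands. The AP-1 motif was spelled TGANTCA and the cyclic AMP response element (CRE) was spelled TGACGTCA. For the antioxidant response element the letters were TGACNNNGC and for TEAD factors they were CATTCC. The motif of the Wnt effectors TCF/LEF was CTTTGAT and that of the TATA box was TATAAA. The Areg window held a CRE that begins 61 bases before the start and a TATA box that begins 31 bases before it, with no overlap between them. The Errfi1 window held the same pair, beginning 51 and 28 bases before its start. Of 32851 windows in the whole table, 1.79% held the CRE, 13.6% the TATA box and 0.17% both. The share with both was counted for this pair alone, the one found in Areg and Errfi1, and is a description only. Among the other members, Epgn had a TATA box, beginning 86 bases before the start, Erbb2 and the earlier Errfi1 window had a TEAD match, and the windows of Btc, Tgfa and Egfr held none of the 6. No member window matched the AP-1, antioxidant or TCF/LEF letters, which 7.81%, 12.4% and 3.73% of all windows did. A match is a run of letters and does not show that a factor binds.

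Hbegf encodes heparin-binding EGF-like growth factor, which binds EGFR and ErbB4. It stood at 7.24, 10.9 and 11.2 RPKM in DM-aKG replicates 1 to 3, against 3.77, 3.10 and 3.54 RPKM in the controls. DM-aKG replicate 1 lay below the other DM-aKG libraries but above every control. Hbegf averaged 9.77 ± 2.20 RPKM in DM-aKG and 3.47 ± 0.34 RPKM in control (SD, n = 3 each), which is 1.35 ± 0.15 in log2 fold change (SE; limma, adjusted p = 3.06e-04), and its rise ranked 145th. Its standard error was the largest among the 8 tested members.

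Btc encodes betacellulin, a ligand of EGFR and ErbB4. It stood at 34.7, 32.5 and 31.7 RPKM in DM-aKG, against 17.1, 17.2 and 15.1 RPKM in control. The groups lay far apart relative to their spread, with means of 33.0 ± 1.56 RPKM in DM-aKG and 16.4 ± 1.18 RPKM in control (SD, n = 3 each). The log2 fold change of Btc was 0.98 ± 0.06 (SE; limma, adjusted p = 2.31e-05).

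Tgfa encodes transforming growth factor α, an EGFR ligand of the gut epithelium. It stood at 12.4, 13.0 and 14.1 RPKM in DM-aKG, against 7.93, 8.30 and 7.46 RPKM in control. All DM-aKG libraries lay above all controls, and the log2 fold change was 0.70 ± 0.06 (SE; limma, adjusted p = 1.01e-04).

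Ereg, the gene of epiregulin, and Epgn, the gene of epigen, were near the lower end of what these libraries can measure. Ereg was listed at 0.90, 0.60 and 0.61 RPKM in DM-aKG and at 0.05, 0.04 and 0.04 RPKM in control. With the exon length of the GENCODE annotation (4.13 kb) and the estimated depth, that stands for about 81 to 127 reads in each DM-aKG library and about 5 to 7 in each control. The mean RPKM of Ereg was 16.2 times higher in DM-aKG, a ratio whose control side rests on those few reads and on values rounded to 2 decimals. With no filter on low values, the log2 fold change of Ereg was 1.14 (limma, adjusted p = 5.95e-04), where the added 0.5 RPKM holds the change down. Epgn was listed at 0.91, 0.25 and 0.49 RPKM in DM-aKG and at 0.14, 0.14 and 0.18 RPKM in control, about 15 to 56 reads and about 8 to 11 reads per library. Its DM-aKG libraries spread more than 3-fold among themselves, and Epgn was not called with no filter (log2 fold change 0.64; limma, adjusted p = 0.0620). These read numbers carry counting error only and depend on the gene length, which the table does not give.

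Summed over the 6 ligand genes, RPKM came to 246.7 ± 2.87 in DM-aKG and 81.1 ± 6.21 in control (SD, n = 3 each), a ratio of 3.04. Without Areg the sums were 57.2 ± 0.966 RPKM in DM-aKG and 28.0 ± 1.48 RPKM in control, a ratio of 2.04. Areg made up 76.1% to 77.3% of the ligand sum in the DM-aKG libraries and 64.5% to 66.3% in the controls. The share of Btc was 13.0% to 14.0% in DM-aKG and 19.8% to 20.7% in control, and that of Tgfa 5.02% to 5.80% in DM-aKG and 9.22% to 10.1% in control. For these 3 genes the shares of the groups did not overlap, while Hbegf held 2.92% to 4.60% in DM-aKG and 3.73% to 4.78% in control, with overlap. Ligand mRNA of DM-aKG organoids was thus both more abundant and more dominated by Areg, as a description of these libraries with no test.

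**Figure D2:**
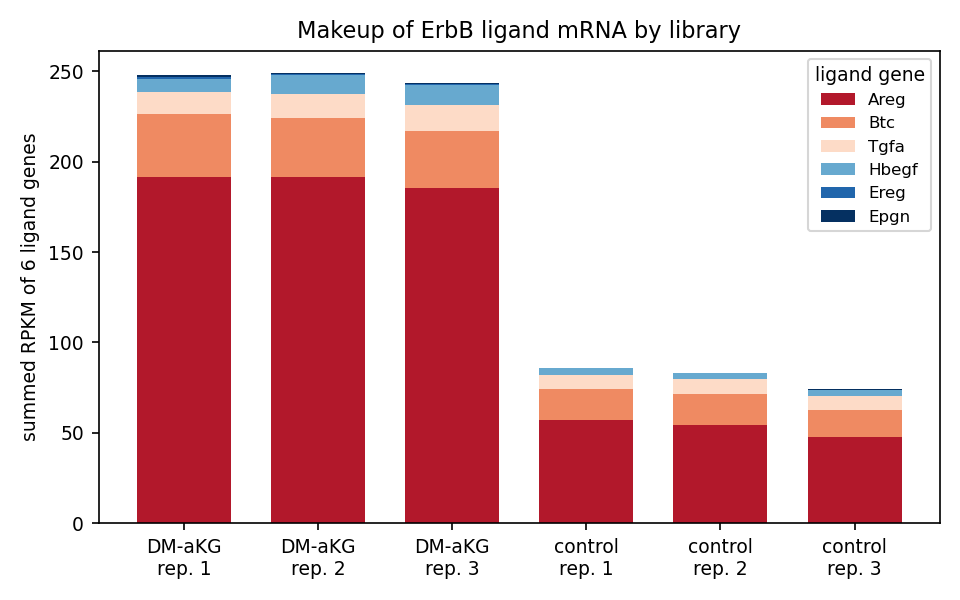
Summed RPKM of the 6 ligand genes in each library, stacked by gene, with the 3 DM-aKG libraries left of the 3 controls. The DM-aKG bars reach 243 to 249 RPKM and the control bars 74.1 to 86.0 RPKM, with Areg as the largest block in each.

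On the assembly GRCm38, Epgn, Ereg, Areg and Btc lie in that order on chromosome 5 between positions 91027464 and 91402994, a span of 376 kb, all protein-coding, with Btc on the minus strand and the other 3 on the plus strand. Areg itself spans 91139599 to 91148432. For all 4 the lowest DM-aKG library lay above the highest control, as in 35.3% of tested genes, although Ereg and Epgn were below the filter. Values are listed for 14 other genes in this span or within 500 kb of it. Of those, 11 were below the filter, 4 at 0 in every library. Among the 11, Cxcl1, Cxcl2 and Cxcl5 also had every DM-aKG library above every control. Cxcl1 stood at 0.34, 0.55 and 0.55 RPKM in DM-aKG, against 0.03, 0.03 and 0.16 RPKM in control. Cxcl2 and Cxcl5 were at 0 in every control and did not exceed 0.11 RPKM in DM-aKG. For both, any value above 0 in each DM-aKG library was enough to keep the groups apart. Of the 3 other genes that were tested, Rassf6 and Parm1 were called higher and Mthfd2l was not called, where 30.9% of all tested genes were called higher. So few genes are not read as a property of the region. Rassf6, a RAS association domain gene, stood at 17.1, 19.5 and 19.7 RPKM in DM-aKG, against 12.9, 11.7 and 12.2 RPKM in control (limma, adjusted p = 2.53e-04). Parm1 stood at 23.2, 21.4 and 22.0 RPKM in DM-aKG, against 15.4, 14.1 and 14.7 RPKM in control (limma, adjusted p = 1.11e-04). Mthfd2l, directly beside Epgn, stood at 2.57, 1.93 and 1.91 RPKM in DM-aKG, against 2.68, 2.82 and 2.16 RPKM in control, with overlap. On the scale of the fit, Rassf6 rose 1.51-fold and Parm1 1.49-fold, beside 3.56-fold for Areg and 1.98-fold for Btc. Hbegf lies on chromosome 18, Tgfa on chromosome 6, Egfr and Erbb2 on chromosome 11, Erbb3 on chromosome 10 and Errfi1 on chromosome 4.

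Among the receptors, Egfr rose, Erbb3 rose slightly and Erbb2 did not pass the test. Egfr, the receptor of all 6 ligands, stood at 6.32, 7.74 and 7.88 RPKM in DM-aKG, against 4.16, 4.13 and 4.0 RPKM in control. Replicate 1 was the lowest DM-aKG library, as for Hbegf, and still lay above every control. The log2 fold change of Egfr was 0.76 ± 0.08 (SE; limma, adjusted p = 2.56e-04).

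Erbb2, which has no known ligand of its own and is the favoured partner of the other receptors, stood at 18.2, 18.2 and 18.7 RPKM in DM-aKG, against 18.8, 19.0 and 18.4 RPKM in control. The groups overlapped, and the log2 fold change was -0.03 ± 0.04 (SE; limma, adjusted p = 0.572). Its exons share 9 bases with those of Mien1 on the opposite strand, a gene that stood at 63.3 ± 7.54 RPKM in DM-aKG and 62.4 ± 1.43 RPKM in control (SD, n = 3 each). Exons of Ereg and Tgfa also overlap genes on the opposite strand, Gm19610 and Gm43917. Whether reads were counted by strand is not given in the sources used here.

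Erbb3 encodes the neuregulin receptor with little kinase activity of its own, which recruits PI3-kinase. It stood at 30.1, 30.6 and 30.7 RPKM in DM-aKG, against 27.4, 27.6 and 26.4 RPKM in control. The groups did not overlap, and the difference was small, at 0.16 ± 0.04 in log2 fold change (SE; limma, adjusted p = 0.00796), so that 31.1% of tested genes had a rise at least as large.

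The 3 receptor genes summed to 56.15 ± 1.35 RPKM in DM-aKG and 49.96 ± 1.02 RPKM in control (SD, n = 3 each). The share of Egfr in that sum was 11.6% to 13.8% in DM-aKG and 8.14% to 8.26% in control, while Erbb3 held 53.6% to 55.1% in DM-aKG and 54.0% to 54.4% in control. Summed ligand RPKM was 4.25 to 4.53 times summed receptor RPKM in the DM-aKG libraries and 1.52 to 1.71 times in the controls.

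Errfi1 encodes MIG6, an inhibitor that binds the kinase domain of EGFR and is itself induced by ERK signalling. It stood at 17.5, 17.7 and 17.4 RPKM in DM-aKG, against 14.1, 14.4 and 13.5 RPKM in control. The 3 DM-aKG libraries were nearly alike and all above the controls. The log2 fold change of Errfi1 was 0.31 ± 0.04 (SE; limma, adjusted p = 6.41e-04).

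**Figure D3:**
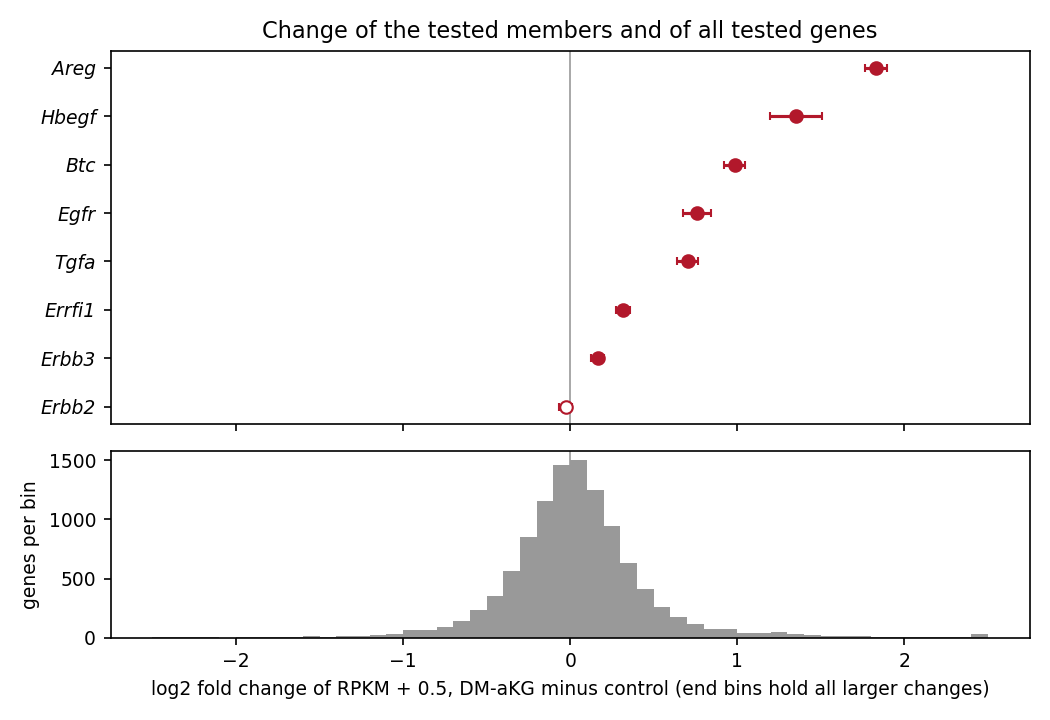
Above, log2 fold change (DM-aKG minus control) with its standard error for the 8 tested members, filled where the adjusted p was under 0.05; below, the number of tested genes per bin of the same axis. Areg at 1.83 and Hbegf at 1.35 lie far out on the upper side of the distribution, Erbb3 at 0.16 lies within its bulk, and Erbb2 at -0.03 is open.

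In DM-aKG the order of mean levels was Areg, Btc, Erbb3, Erbb2, Errfi1, Tgfa, Hbegf, Egfr, Ereg and Epgn. Neighbours in that order had ranges that did not overlap, except Hbegf with Egfr and Ereg with Epgn. In control the order was Areg, Erbb3, Erbb2, Btc, Errfi1, Tgfa, Egfr, Hbegf, Epgn and Ereg, with no overlap between neighbours. By listed RPKM, Btc thus stood above Erbb3 and Erbb2 in DM-aKG organoids and below both in control organoids. Such orders depend on gene lengths that are not given, and some gaps were small. In DM-aKG the lowest Btc value was 31.7 RPKM and the highest Erbb3 value 30.7 RPKM.

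The other ligand genes of the family were at low levels in both groups, and the receptor gene Erbb4 was listed at 0 in every library. None of these 6 genes (Egf, Nrg1 to Nrg4 and Erbb4) passed the filter. Nrg4, the gene of an ErbB4 ligand, came closest, at 1.06, 0.82 and 1.09 RPKM in DM-aKG and 0.69, 0.53 and 0.73 RPKM in control. Its groups did not overlap, its DM-aKG mean of 0.99 RPKM lay above that of Ereg and Epgn, and with no filter it was called higher (log2 fold change 0.37; limma, adjusted p = 0.0404). Egf was listed at 0.07, 0.03 and 0.03 RPKM in DM-aKG and at 0.09, 0.15 and 0.22 RPKM in control, and with no filter it was called lower (log2 fold change -0.26; limma, adjusted p = 0.0371). Nrg1, a ligand of ErbB3 and ErbB4 that stromal cells usually supply, did not exceed 0.04 RPKM in any library.

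Genes that release or mature the ligands rose in part. Of 12 listed, 9 were tested, and limma called 5 higher and 0 lower and left 4 uncalled, where 30.9% of all tested genes were called higher and 24.7% lower. The median log2 fold change was 0.25, beside 0.02 over all tested genes. This list and those that follow were chosen with earlier results of these data known. Their counts and medians are therefore a description only. Rhbdf2, which encodes the inactive rhomboid iRhom2 that carries ADAM17 to the cell surface, averaged 11.5 ± 1.44 RPKM in DM-aKG and 6.10 ± 0.275 RPKM in control (SD, n = 3 each; log2 fold change 0.86 ± 0.09, limma, adjusted p = 1.93e-04). Frmd8, whose product stabilises iRhoms with ADAM17 at the surface, averaged 15.1 ± 0.479 RPKM in DM-aKG and 10.5 ± 0.598 RPKM in control (SD, n = 3 each; limma, adjusted p = 2.31e-04). The metalloprotease gene Adam15 and the iRhom1 gene Rhbdf1 rose by 0.58 ± 0.10 and 0.25 ± 0.07 on the log2 scale (SE). Adam17, the sheddase of amphiregulin, stood at 11.0, 9.58 and 9.87 RPKM in DM-aKG, against 11.0, 10.5 and 10.7 RPKM in control (limma, adjusted p = 0.282), but it was lower without DM-aKG replicate 1 (log2 fold change -0.14; limma, adjusted p = 0.0283). Adam10, the sheddase of betacellulin, averaged 48.8 ± 1.17 RPKM in DM-aKG and 47.6 ± 0.550 RPKM in control (SD, n = 3 each; limma, adjusted p = 0.436). Without DM-aKG replicate 2, or without control replicate 1, 3 genes of the list were called higher, and Rhbdf1 was not called without either of these or without DM-aKG replicate 3 or control replicate 3.

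Genes that relay the signal from the receptor changed in both directions. All 25 listed were tested, and 11 were called higher, 3 lower and 11 neither, where 30.9% of all tested genes were called higher and 24.7% lower. The median log2 fold change was 0.11 in the list. Under quantile normalization, and without control replicate 2 and DM-aKG replicate 1 together, 5 were called lower. The MEK genes Map2k1 and Map2k2 rose by 0.40 ± 0.06 and 0.29 ± 0.04 on the log2 scale (SE). The largest change in the list was in Pik3r1, which encodes the p85 subunit that docks PI3-kinase on receptors. Pik3r1 stood at 14.5, 11.5 and 10.9 RPKM in DM-aKG, against 24.1, 23.8 and 23.9 RPKM in control (log2 fold change -0.95 ± 0.10 SE; limma, adjusted p = 1.75e-04). Plcg1, the gene of phospholipase C γ1, averaged 4.70 ± 0.255 RPKM in DM-aKG and 6.97 ± 0.200 RPKM in control (SD, n = 3 each), which is -0.52 ± 0.06 in log2 fold change (SE; limma, adjusted p = 2.38e-04).

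Among genes that restrain or degrade the receptors, 19 of 20 listed were tested, and 6 were called higher, 2 lower and 11 neither, with a median log2 fold change of 0.08. The share called higher was near the 30.9% of all tested genes, and fewer were called lower than the 24.7% of all would give; neither is read as a property of the list. The ubiquitin ligase genes of the CBL family, which mark activated EGFR for degradation, went in different directions. Cblc averaged 26.8 ± 1.11 RPKM in DM-aKG and 19.4 ± 0.555 RPKM in control (SD, n = 3 each; limma, adjusted p = 1.91e-04), and Cbl rose by 0.32 ± 0.05 on the log2 scale (SE). Cblb averaged 2.67 ± 0.0862 RPKM in DM-aKG and 3.64 ± 0.101 RPKM in control (SD, n = 3 each; limma, adjusted p = 0.00132). The adaptor gene Dok1 and the endosomal sorting gene Hgs rose by 0.42 ± 0.07 and 0.27 ± 0.04 on the log2 scale (SE). Lrig1, a transmembrane inhibitor of ErbB receptors that marks intestinal stem cells, stood at 32.7, 31.6 and 33.1 RPKM in DM-aKG, against 40.6, 51.2 and 42.7 RPKM in control. Lrig1 thus was lower in all 3 DM-aKG libraries, which is -0.45 ± 0.08 in log2 fold change (SE; limma, adjusted p = 0.00240), unlike the receptor inhibitor gene Errfi1, which rose.

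Most tested genes listed as induced by ERK signalling or feeding back on it were called higher, but none of the tested Spry and Spred genes. Of 22 listed, 19 were tested, and 12 were called higher, 2 lower and 5 neither, with a median log2 fold change of 0.42, where 30.9% of all tested genes were called higher and 24.7% lower. Fosl1 reached the filter through the DM-aKG libraries alone, and without it 11 of 18 were called higher, with a median of 0.40. The list was chosen with earlier results of these data known. Its excess over the share of all tested genes is therefore not read as a property of the list. Fosl1, a subunit of the AP-1 transcription factor, stood at 2.16, 3.59 and 3.81 RPKM in DM-aKG, against 0.09, 0.10 and 0.09 RPKM in control. Its log2 fold change moves with the value added before the logarithm, at 2.60 with 0.5 RPKM, 4.05 with 0.1 and 1.91 with 1, and is given without a test. Epha2, an ephrin receptor gene, averaged 24.3 ± 4.14 RPKM in DM-aKG and 8.17 ± 0.365 RPKM in control (SD, n = 3 each; limma, adjusted p = 5.31e-05). Dusp5, an ERK phosphatase gene, and Etv4, an ETS factor gene, rose by 0.87 ± 0.07 and 1.01 ± 0.10 on the log2 scale (SE). Against that direction, the phosphatase gene Dusp7 averaged 3.87 ± 0.563 RPKM in DM-aKG and 5.67 ± 0.273 RPKM in control (SD, n = 3 each; limma, adjusted p = 0.00327). Spred1 was also called lower, at a log2 fold change of -0.29. The 5 genes not called were Spry1, Spry2, Spred2, Myc and Ccnd1. Feedback genes thus differed among themselves, as Dusp4, Dusp5 and Dusp6 were called higher. Phosphorylation of the receptors or of ERK was not measured.

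**Figure D4:**
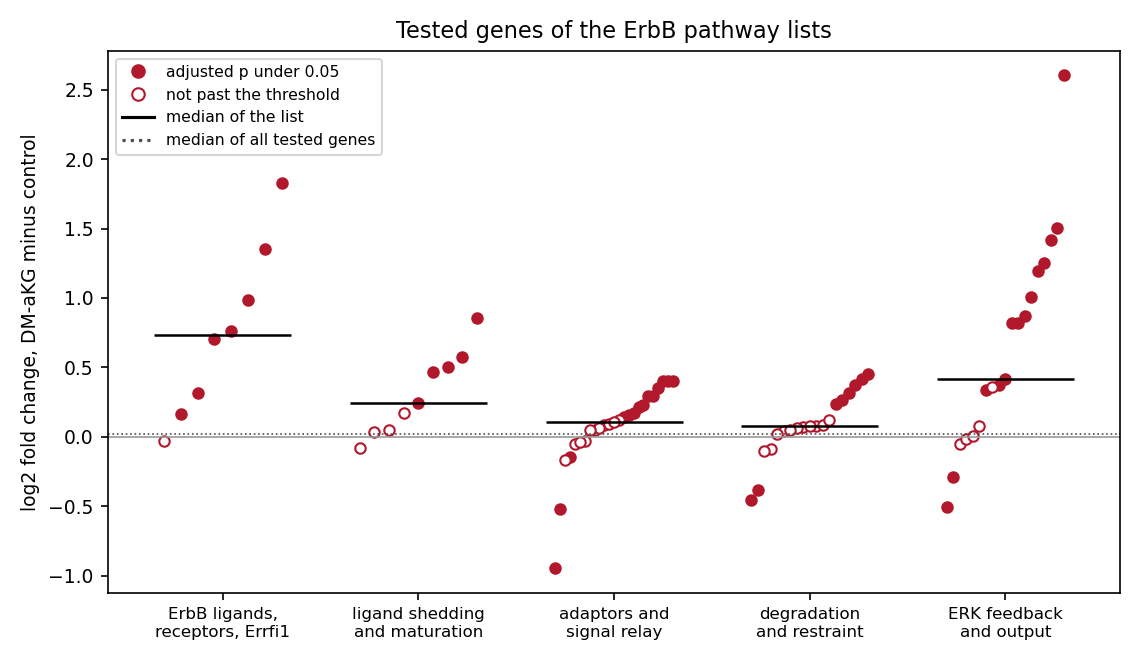
Log2 fold change (DM-aKG minus control) of each tested gene in the ErbB ligand, receptor and inhibitor set and in 4 pathway lists, filled where the adjusted p was under 0.05, with a bar at each list's median and a dotted line at the median of all tested genes. The medians are 0.25 for shedding and maturation, 0.11 for signal relay, 0.08 for degradation and restraint and 0.42 for ERK feedback and output, beside 0.02 for all tested genes. The set and the lists were chosen with earlier results of these data known.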

How the data were processed

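RNA-seq libraries of 3 DM-aKG and 3 control cultures were analysed from a table of RPKM with 2 decimals that the authors deposited for 24956 genes. Per the labels, the material was total RNA from a Qiagen kit, and libraries are credited to TruSeq SR Cluster V3 kits. The tools named, per the submitters' processing notes, were HISAT2 2.0.4, CASAVA 1.8 and Partek, with the build mm10. Annotation, strand and the handling of multiply mapped reads: not given in the sources used here. Since RPKM is relative to a library's total, a change in abundant genes shifts the rest.

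Genes with a mean of at least 1 RPKM over all 6 libraries (10852) were compared as log2(RPKM + 0.5) with limma 3.58.1 in R 4.3.3 (eBayes, trend over mean level, two-sided, no block, Benjamini-Hochberg adjustment over all tested genes); 14104 genes were below. The added 0.5 makes fold changes of low genes too small. The procedure was tested on simulated data with independent noise for each gene and library. Such a simulation does not bear on cultures that depend on each other or on the relative scale of RPKM. The members and lists were chosen with earlier results of these data known. Named genes were all members, the 4 tested genes of each list with the smallest p, the called gene with the smallest p against a list's direction, Egf, Nrg1, Erbb4, Adam17, Adam10 and Lrig1, and the 4 nearest in profile to the member with the largest rise (no member was called lower); other genes were chosen after their values were seen. Depth was estimated from RPKM of short genes (miRNA and snoRNA, up to 150 bases), where 84.2% to 91.4% of other values of up to 5 reads came out whole within 0.05 reads. Positions are from GENCODE for GRCm38, the assembly mm10 names. Alternatives covered the pseudocount, filter, scaling, variance model, replicate block and omitted libraries. Tables were made with pandas 2.3.3 and numpy 2.4.6 in Python 3.11.15, figures with matplotlib 3.10.9.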

Additional observations from a re-analysis of the deposited data

How the results depend on the processing

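All 8 tested members kept their call, or their lack of one, under all 17 alternatives: pseudocounts of 0.1 and 1, a filter at 3 RPKM or none, median centring, quantile normalization, equal sums, no trend, array weights, the replicate block, each library left out, and control replicate 2 with DM-aKG replicate 1 left out together. The log2 fold change was 1.76 to 1.91 for Areg, 1.24 to 1.54 for Hbegf, 0.92 to 1.03 for Btc, 0.70 to 0.86 for Egfr, 0.65 to 0.78 for Tgfa and 0.25 to 0.35 for Errfi1. That of Erbb3 was 0.10 to 0.20, with an adjusted p (limma) of 0.0450 under quantile normalization, and that of Erbb2 -0.10 to 0.01, with no call. No member was called lower. Of the 10 members tested with no filter on low values, 8 were called higher, where Ereg was added. In that setting 3783 of all 18343 tested genes were called higher and 2832 lower. With the replicate number as a block, 3206 genes were called higher and 2542 lower, with 7 members higher and 0 lower, and no member's call changed. The numbers gave no sign of pairing: same-numbered libraries deviated from their group means with correlations of -0.08, -0.11 and 0.01 across genes. With no filter, 1 of the other EGF family genes was called higher (Nrg4) and 1 lower (Egf), because more genes were tested. In the shedding list 1 gene was lower with array weights and 1 without control replicate 2 and DM-aKG replicate 1 together; leaving out 1 library gave 3 to 5 higher and 0 to 1 lower. In the relay list 5 were lower under quantile normalization and 5 without those 2 libraries together. The cause was not tested. Few reads limit Ereg and Epgn.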
